A study of Mus musculus with 12 samples.

Results

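The kinesins are the motor proteins that walk along or shorten microtubules, and their genes were followed here in B16, an established mouse melanoma cell line. The members were all rows of the deposited count table whose symbol is Kif with a number and at most 1 letter, or Kifc with 1 digit, which gave 40 of 23336 rows. Of these, 11 were placed in a class of mitotic kinesins, 15 in a class of transport kinesins and 14 in a class of other kinesins. A total of 32 members held enough counts to be tested (11 mitotic, 11 transport and 10 other), 5 were counted but too low for the test, and 3 were at 0 in every library. The cells carried either Adar sgRNA 1, a guide against the gene of the RNA-editing enzyme ADAR, or the non-targeting sgRNA 5, and they had been subcloned after transient exposure to Cas9. They were then treated for 36 h with interferon beta (IFNb, a type I interferon) at 1000 U per mL or with its vehicle, which is phosphate-buffered saline with albumin. This gave 4 groups of 3 libraries: Adar-null cells treated with IFNb, Adar-null cells given vehicle, control cells treated with IFNb and control cells given vehicle. All cells had been exposed to Cas9 and subcloned. Each genotype rests on 1 guide, and the effect of the genotype cannot be told apart from the history of its subcloned cells. An interferon-gamma arm of the study is not analysed here.

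Kinesins hydrolyse ATP through a conserved motor domain, and most of them step toward the plus ends of microtubules, which point to the cell periphery or the spindle midzone. A first set is built into the mitotic spindle: these motors push the poles apart, position chromosomes, trim microtubule ends and bundle the midzone where cytokinesis takes place, and their messages are made mainly in the late part of the cell cycle. A second set carries cargo between divisions, such as mitochondria, endosomes, lysosomes, cilium components and, in pigment cells, melanosomes. The late cell cycle genes commonly carry a short promoter element named the cell cycle genes homology region (CHR), which is bound by the DREAM and MuvB complexes, and CCAAT boxes, which are bound by NF-Y.

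The promoters of the mitotic class are shown first, because its members moved together. RefSeq promoter windows (GRCm38.p6, 250 bases before to 50 after the annotated start) matched 32 of the 40 members, and Kif13b, Kif19a, Kif20a, Kif21b, Kif5a, Kif5b, Kifc2 and Kifc3 had none in the table used. The stretches below run from 70 bases before the start to 30 bases after it, 5′ to 3′ on the gene's own strand. Capitals mark TTTGAA (the CHR), CCAAT or TTTGGCGC (a form of the E2F site), or the reverse complement of any of these. The first 8 are mitotic kinesins, among them the only mitotic promoter window without a CHR, that of Kif18a. The mitotic kinesins Kif14 and Kif2c are not printed. Their CHR matches lie farther from the RefSeq start, at -228 and -103, and the same stretch of either holds none of the marked motifs. For both genes the gene start in GENCODE M21 lies outside the RefSeq window, so these distances depend on the start taken.
Kif11 (chr19:37376312-37376411, plus strand): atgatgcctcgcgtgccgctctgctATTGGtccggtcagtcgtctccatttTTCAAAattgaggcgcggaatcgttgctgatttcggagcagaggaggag
Kif15 (chr9:122951011-122951110, plus strand): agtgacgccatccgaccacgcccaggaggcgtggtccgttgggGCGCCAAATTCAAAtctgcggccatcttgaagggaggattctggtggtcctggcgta
Kif4 (chrX:100625995-100626094, plus strand): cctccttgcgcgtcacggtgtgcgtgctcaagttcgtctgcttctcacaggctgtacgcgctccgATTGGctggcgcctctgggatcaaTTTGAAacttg
Kif22 (chr7:127042391-127042490, minus strand): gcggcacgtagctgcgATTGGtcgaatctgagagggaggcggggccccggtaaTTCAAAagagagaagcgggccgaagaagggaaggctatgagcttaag
Kif23 (chr9:61946770-61946869, minus strand): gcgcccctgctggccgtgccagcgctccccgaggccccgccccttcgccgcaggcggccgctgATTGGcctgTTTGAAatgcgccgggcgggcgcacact
Kif20b (chr19:34922288-34922387, plus strand): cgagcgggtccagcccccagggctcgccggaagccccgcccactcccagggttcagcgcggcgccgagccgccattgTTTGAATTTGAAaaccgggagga
Kifc1 (chr17:33890604-33890703, minus strand): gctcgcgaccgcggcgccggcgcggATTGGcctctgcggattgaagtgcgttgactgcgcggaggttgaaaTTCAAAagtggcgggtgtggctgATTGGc
Kif18a (chr2:109280668-109280767, plus strand): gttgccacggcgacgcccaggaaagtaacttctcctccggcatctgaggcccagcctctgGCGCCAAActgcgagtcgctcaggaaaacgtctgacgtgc
The next 2 stretches belong to Kif18b and Kif26b, the tested kinesins outside the mitotic class that also hold a CHR within 50 bases of the start. The last 2 belong to transport kinesins that were higher with IFNb in Adar-null cells. Of the 3 marked motifs they hold a single CCAAT, in Kif3b. Kif5c held enough counts to be tested only through the Adar-null IFNb group. Transport kinesins that fell in Adar-null cells are not printed. Of these, Kif13a, Kif16b and Kif3c hold none of the 3 motifs in their windows, and Kif1b and Kif3a hold CCAAT alone.
Kif18b (chr11:102925095-102925194, minus strand): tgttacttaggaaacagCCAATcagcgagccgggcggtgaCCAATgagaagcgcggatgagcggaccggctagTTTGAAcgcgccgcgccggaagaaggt
Kif26b (chr1:178529055-178529154, plus strand): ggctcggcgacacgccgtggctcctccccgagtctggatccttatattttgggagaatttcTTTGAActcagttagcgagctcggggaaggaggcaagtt
Kif3b (chr2:153291346-153291445, plus strand): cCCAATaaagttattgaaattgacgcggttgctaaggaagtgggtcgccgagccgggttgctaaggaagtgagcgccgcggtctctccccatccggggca
Kif5c (chr2:49619216-49619315, plus strand): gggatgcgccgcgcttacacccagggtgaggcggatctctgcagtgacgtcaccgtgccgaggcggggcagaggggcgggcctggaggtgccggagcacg

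With both strands searched over the full 300-base windows, TTTGAA was found in 9 of 10 mitotic kinesins (90%), 1 of 10 transport kinesins and 3 of 12 other kinesins, against 17.9% of all 32851 promoter windows. Within 50 bases of the start it was present in 7 of 10 mitotic kinesins, namely Kif11, Kif15, Kif20b, Kif22, Kif23, Kif4 and Kifc1, against 4.94% of all windows. It was also there in 1 of 10 transport kinesins, Kif1a, and in 2 of 12 other kinesins, Kif18b and Kif26b. CCAAT was found in 6 of 10 mitotic, 3 of 10 transport and 6 of 12 other kinesins (37.4% of all windows). A window with both TTTGAA and CCAAT was seen for 6 of 10 mitotic, 0 of 10 transport and 3 of 12 other kinesins, and for 6.95% of all windows. TTTGGCGC occurred in Kif15 and Kif18a only among the 32 members (0.514% of all windows), and TTTCGCGC in none of them (0.323%). In Kif15 the TTTGGCGC match and the CHR match lie side by side, and Kif20b holds a pair of CHR matches side by side. Members were counted by gene, with a match in any of its windows, whereas the shares of all windows were counted by window. Kif1a holds its TTTGAA in only 1 of its 2 windows. A match is a description of the letters and was not tested as a site of binding.

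**Figure D1:**
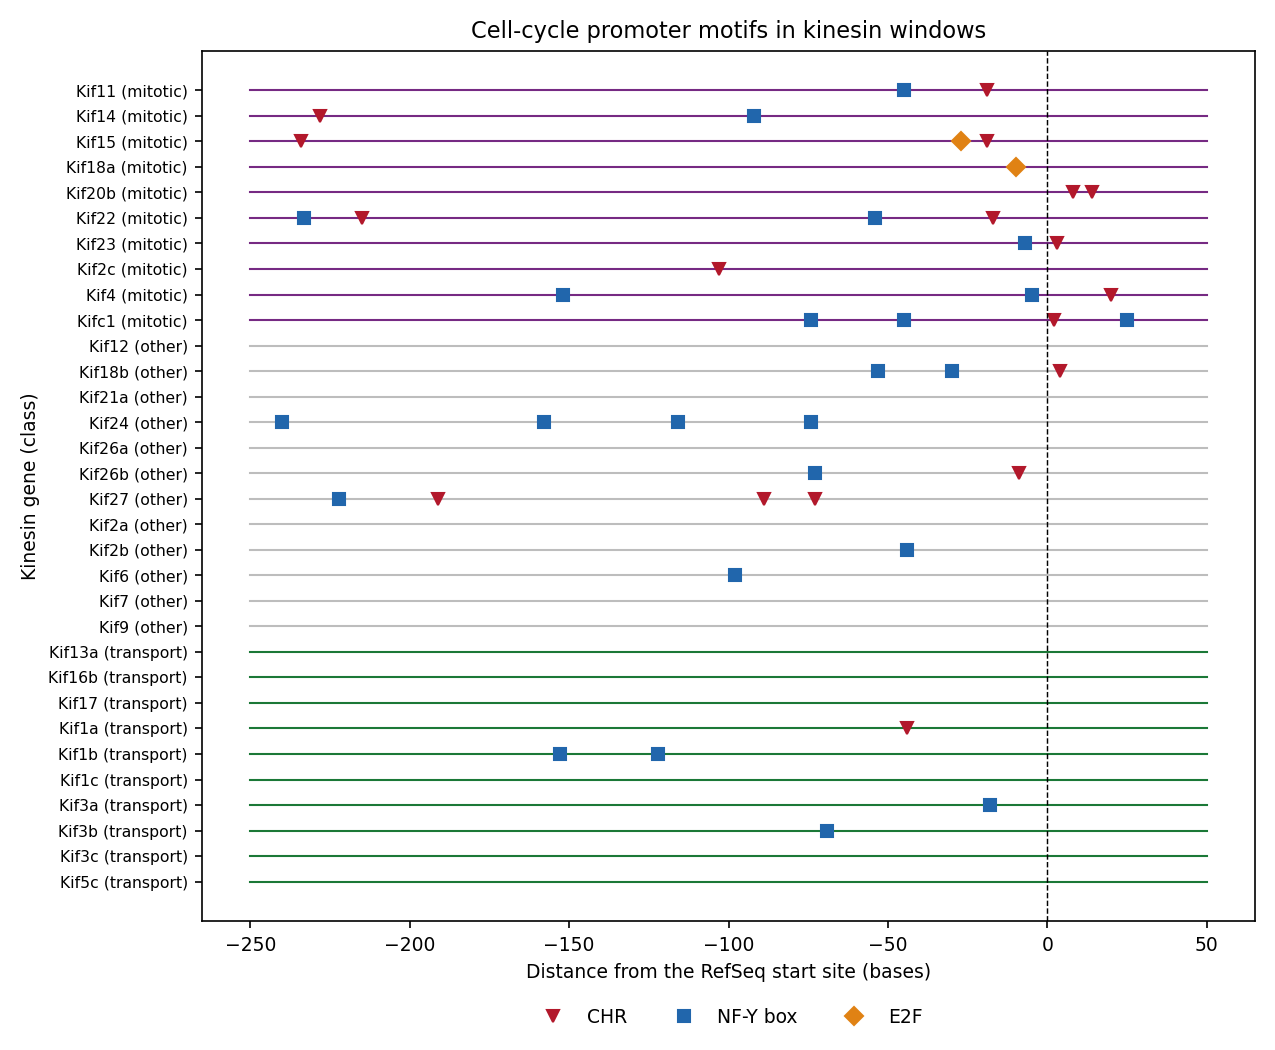
Positions of the CHR, the NF-Y box (CCAAT) and the E2F form TTTGGCGC in the RefSeq windows of the 32 members that have one; the horizontal axis is the distance from the annotated start in bases and each row is a gene. The CHR matches of 7 mitotic kinesins gather within 50 bases of the start.

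Each library held 5375649 to 7153480 counts. The ribosomal RNA precursor Rn45s took 24.9% to 28.49% of the counts with IFNb, against 21.09% to 22.89% with vehicle. Levels are normalised counts relative to library size (CPM, scaled by TMM). Fold changes are log2 from edgeR's quasi-likelihood fit, with a Wald standard error computed from the fitted values. The p-values come from the quasi-likelihood test, so they need not match the ratio of a value to its error. A gene was called where its p, adjusted by Benjamini-Hochberg over the 11561 genes tested, was under 0.05. Adar, the targeted gene, averaged 407 ± 21.1 CPM in Adar-null cells with IFNb, against 59.5 ± 5.25 CPM with vehicle (SD, n = 3 each). Control cells averaged 384 ± 7.46 CPM with IFNb, against 72.1 ± 2.05 CPM with vehicle. Its message was thus present in both genotypes, and its count does not show whether the protein was lost. The 7 melanocyte markers in the table were all counted. Their sum was 10419 to 11132 CPM in the Adar-null libraries with IFNb, against 15235 to 15421 CPM with vehicle. In the control libraries it was 13345 to 13642 CPM with IFNb, against 15621 to 16448 CPM with vehicle. Of 15 markers of leukocytes, endothelium, epithelium, fibroblasts and neurons, 5 were at 0 in all libraries (Cd3e, Epcam, Krt14, Krt8 and Snap25). The whole list summed to 21.5 to 29.7 CPM in the Adar-null libraries with IFNb, against 74.3 to 93.3 CPM with vehicle. In control cells the same sum was 64.8 to 72.4 CPM with IFNb and 79.8 to 84.8 CPM with vehicle, most of it from Tubb3, a tubulin gene. With Rn45s left out of the counts, no call on a kinesin changed in any of the comparisons. Any other part of these Rn45s and marker differences in the kinesin values was not tested. Separate cultures are not stated in the labels for the 3 libraries of a group, so each p-value reflects the spread among libraries alone, and that spread may be technical.

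Of the 32 tested kinesins, 28 were called in the response of Adar-null cells to IFNb, where 72.3% of all genes tested were called. That count includes Kif5c, which passed the count filter only through the Adar-null IFNb group, and without it 27 of 31 were called. All 11 mitotic kinesins fell with IFNb in Adar-null cells, by 1.99 to 4.10 on the log2 scale, with a median of -3.26 against 0.01 over all genes tested. Here 35.7% of all genes tested were called lower and 36.6% higher. The 3 Adar-null libraries with IFNb lay below the 3 with vehicle for each of the 11, and the same lack of overlap, in either direction, was seen for 73.7% of all genes. The deepest fall was that of Kif14, which works in cytokinesis together with citron kinase and lies on chr1:136466343-136531511 of GRCm38. Kif14 had 4.92, 3.90 and 3.95 CPM in Adar-null cells with IFNb, against 70.7, 76.0 and 70.7 CPM with vehicle. That is 17.2-fold lower in Adar-null cells with IFNb (-4.10 ± 0.17, adjusted p = 5.03e-60). Whether fewer dividing cells or less message per dividing cell lies behind such a value cannot be told apart in bulk RNA.

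The motors that make the spindle bipolar also fell. Kif11, also known as Eg5, crosslinks antiparallel microtubules and slides the poles apart. Its values were 12.7, 16.4 and 12.6 CPM in Adar-null cells with IFNb, against 155, 157 and 158 CPM with vehicle, with no overlap and an 11.2-fold lower level under IFNb (-3.48 ± 0.10, adjusted p = 2.04e-71). Kif15, which helps to keep the spindle bipolar once it has formed, had 8.70, 8.71 and 7.90 CPM in Adar-null cells with IFNb, against 89.3, 94.3 and 92.6 CPM with vehicle. Its log2 fold change was -3.45 ± 0.13. Kifc1, the motor that walks to minus ends and gathers the poles, fell least of the 11. Kifc1 had 9.27, 9.16 and 6.16 CPM in Adar-null cells with IFNb, against 33.0, 32.8 and 31.7 CPM with vehicle, and was 3.98-fold lower with IFNb (-1.99 ± 0.15, adjusted p = 1.21e-27).

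The central spindle motors fell as well. Kif23, the motor subunit of centralspindlin, had 5.49, 3.75 and 3.95 CPM in Adar-null cells with IFNb, against 64.3, 57.4 and 58.9 CPM with vehicle. This made it 13.8-fold lower with IFNb (-3.79 ± 0.17, adjusted p = 2.45e-54). Kif20a, which brings the chromosomal passenger complex to the midzone, had 8.32, 6.16 and 8.37 CPM in Adar-null cells with IFNb, against 74.1, 73.2 and 70.2 CPM with vehicle, a log2 fold change of -3.26 ± 0.13. Kif20b, a related motor of late cytokinesis, had 10.2, 9.31 and 11.1 CPM in Adar-null cells with IFNb, against 85.4, 72.5 and 75.5 CPM with vehicle, a log2 fold change of -2.93 ± 0.12. In all 3 of these genes the highest IFNb library stayed far under the lowest vehicle library.

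Of the motors on chromosomes, Kif4 binds chromatin and sets the length of the midzone together with Prc1, and Kif22 pushes chromosome arms toward the metaphase plate. Kif4 had 6.05, 7.51 and 7.43 CPM in Adar-null cells with IFNb, against 79.0, 72.8 and 71.0 CPM with vehicle, a log2 fold change of -3.39 ± 0.14. Kif22 had 9.27, 8.86 and 7.90 CPM in Adar-null cells with IFNb, against 57.8, 62.3 and 49.5 CPM with vehicle, a log2 fold change of -2.72 ± 0.13. The microtubule-shortening and end-binding members moved the same way. Kif2c, a depolymerase at centromeres, had 5.49, 5.10 and 6.32 CPM in Adar-null cells with IFNb, against 42.9, 43.4 and 32.4 CPM with vehicle, a log2 fold change of -2.82 ± 0.16. Kif18a, which damps the movements of chromosomes at plus ends, had 3.40, 3.003 and 2.69 CPM in Adar-null cells with IFNb, against 28.1, 23.9 and 22.8 CPM with vehicle, a log2 fold change of -3.04 ± 0.21.

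**Figure D2:**
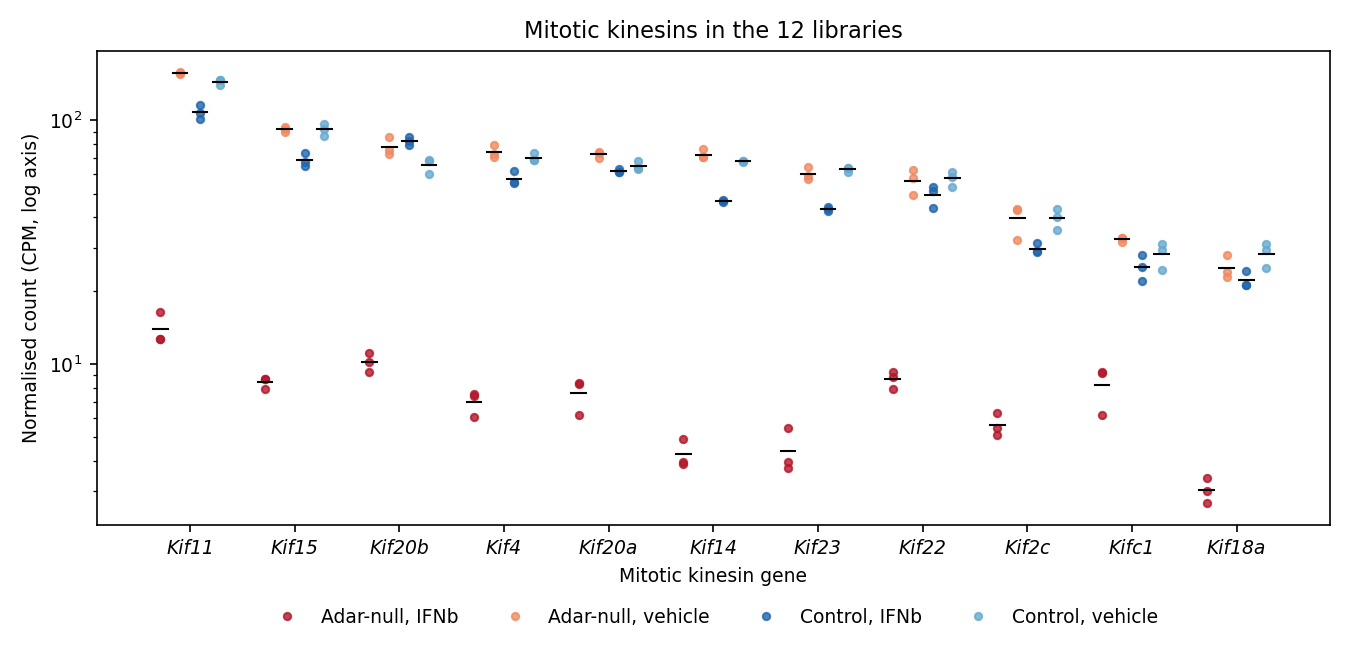
CPM on a log axis of the 11 mitotic kinesins in each of the 12 libraries, by group; each point is a library and each dash a mean over 3 libraries. The Adar-null libraries given IFNb lie below all other libraries for each gene, from 2.69 CPM for Kif18a to 16.4 CPM for Kif11.

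Summed over the class, the mitotic kinesins held 81.3 ± 2.74 CPM in Adar-null cells with IFNb, against 759 ± 24.0 CPM with vehicle (SD, n = 3 each). In control cells the sum was 596 ± 20.0 CPM with IFNb, against 722 ± 0.725 CPM with vehicle. They made up 5.51% ± 0.255 of all kinesin counts in Adar-null cells with IFNb, against 30.02% ± 0.786 with vehicle. In control cells their share was 25.3% ± 0.555 with IFNb, against 28.4% ± 0.469 with vehicle. The transport kinesins held 959 ± 18.7 CPM in Adar-null cells with IFNb, against 1047 ± 15.9 CPM with vehicle, and 1104 ± 19.3 CPM in control cells with IFNb, against 1070 ± 5.69 CPM with vehicle. The sum of the transport class thus moved by far less than that of the mitotic class. The other kinesins held 435 ± 17.7 CPM in Adar-null cells with IFNb, against 723 ± 13.4 CPM with vehicle, and 650 ± 25.5 CPM in control cells with IFNb, against 755 ± 47.0 CPM with vehicle. All kinesins together held 1476 ± 33.4 CPM in Adar-null cells with IFNb, against 2529 ± 31.1 CPM with vehicle. Control cells held 2350 ± 44.8 CPM with IFNb, against 2547 ± 41.3 CPM with vehicle.

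**Figure D3:**
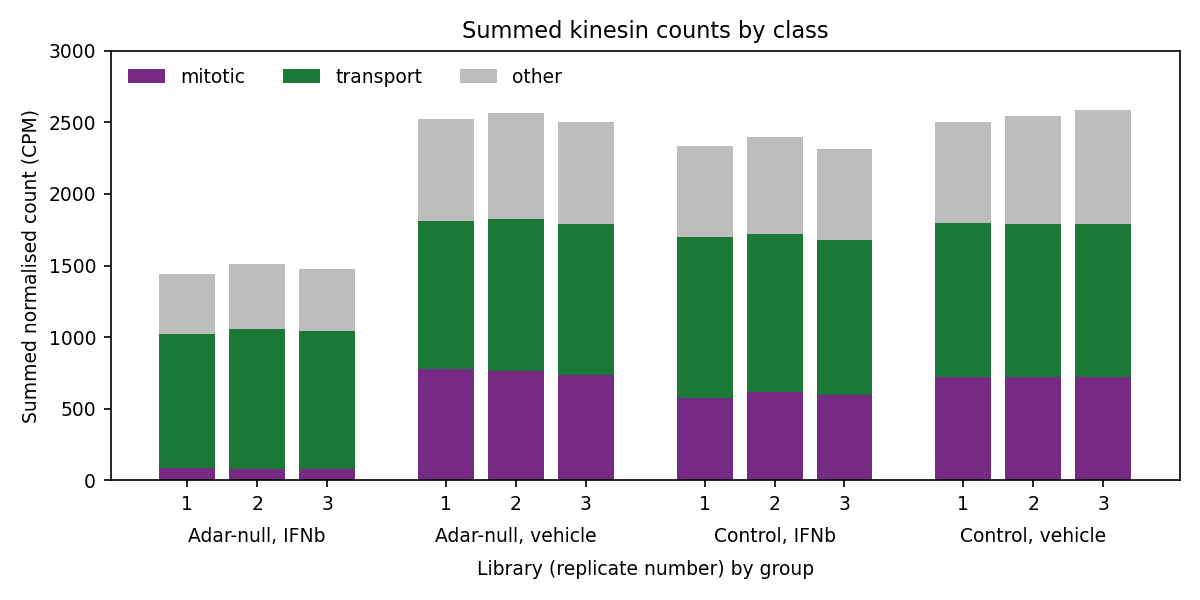
Stacked bars of the summed CPM of the mitotic, transport and other kinesins, with 1 bar for each of the 12 libraries, by group. The mitotic sum averages 81.3 ± 2.74 CPM in Adar-null cells with IFNb, while it lies between 596 ± 20.0 and 759 ± 24.0 CPM in the other 3 groups.

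In control cells 22 of the 32 tested kinesins were called with IFNb, where 53.0% of all genes were called. Of the mitotic kinesins, 8 of the 11 fell, 1 was higher and 2 did not pass the test, with a median of -0.35 against -0.00 over all genes, where 26.5% of all genes were called lower and 26.5% higher. Kif14 had 46.2, 47.3 and 46.6 CPM in control cells with IFNb, against 67.6, 68.2 and 68.4 CPM with vehicle, a log2 fold change of -0.54 ± 0.08, adjusted p = 2.06e-10. Kif23 had 43.2, 42.4 and 44.3 CPM in control cells with IFNb, against 63.9, 61.4 and 63.5 CPM with vehicle, a log2 fold change of -0.54 ± 0.08, adjusted p = 1.4e-09. These 2 had the largest falls of the class in control cells, and their groups did not overlap. Groups did not overlap for 8 of the 11 mitotic kinesins, 7 of them lower, and for 57.6% of all genes. Kif11 had 101, 116 and 107 CPM in control cells with IFNb, against 147, 146 and 139 CPM with vehicle (-0.41 ± 0.06), again without overlap. Kif15 (-0.42 ± 0.07), Kif18a (-0.35 ± 0.11), Kif2c (-0.41 ± 0.10) and Kif4 (-0.29 ± 0.07) also fell. Kif22 had 43.6, 53.4 and 51.2 CPM in control cells with IFNb, against 58.6, 53.2 and 61.5 CPM with vehicle, groups that overlapped, and its fall (-0.22 ± 0.08, adjusted p = 0.0173) was no longer called with DESeq2 (adjusted p = 0.0783), without control IFNb replicate 1 (adjusted p = 0.172), without control vehicle replicate 1 (adjusted p = 0.0510) or without control vehicle replicate 3 (adjusted p = 0.108); without control IFNb replicate 1 its size was -0.14. Kif20a did not pass the test (-0.06 ± 0.07, adjusted p = 0.460), nor did Kifc1 (-0.17 ± 0.11, adjusted p = 0.193).

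Kif20b was the mitotic member that was higher in control cells with IFNb. It had 79.1, 85.8 and 82.7 CPM in control cells with IFNb, against 60.4, 68.7 and 68.0 CPM with vehicle, with a log2 fold change of 0.33 ± 0.07, adjusted p = 1.45e-05. The lowest IFNb library of control cells lay above their highest vehicle library, whereas in Adar-null cells the IFNb libraries lay far below.

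The difference of the responses, Adar-null minus control, was called for 27 of the 32 tested kinesins, where 59.3% of all genes were called, and for 26 of 31 without Kif5c. It was negative for each of the 11 mitotic kinesins (median -3.07), while 30.7% of all genes were called negative and 28.6% positive. It was -3.56 ± 0.19 for Kif14, -3.26 ± 0.14 for Kif20b, -3.25 ± 0.19 for Kif23, -3.20 ± 0.15 for Kif20a, -3.07 ± 0.12 for Kif11 and -1.83 ± 0.18 for Kifc1. The difference was thus larger than its error for each of the 11. Kifc5b is a near-identical copy of Kifc1, and whether they share reads was not tested. Kifc5b on its own changed by -2.56 ± 0.22 in Adar-null cells with IFNb, and with its counts added to Kifc1 the control response was called, at -0.28 (adjusted p = 0.0110), and the Adar-null response -2.19. Adding the pseudogene Kif4-ps to Kif4 left the Adar-null response at -3.40 and the control response at -0.29.

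Set against each other under IFNb, Adar-null cells were lower than control cells in all 11 mitotic kinesins (median -3.02), and the libraries of the genotypes did not overlap in any of the 11. In this comparison 29 of 32 tested kinesins were called, or 28 of 31 without Kif5c, against 72.6% of all genes (36.2% lower and 36.4% higher), and libraries did not overlap for 74.0% of all genes. This comparison shares the Adar-null IFNb libraries with the response above, and the values are given beside it for that reason. The log2 differences ran to -3.46 ± 0.18 for Kif14, with -3.32 ± 0.17 for Kif23, -3.04 ± 0.14 for Kif20a, -3.02 ± 0.14 for Kif4, -3.02 ± 0.12 for Kif20b, -3.02 ± 0.13 for Kif15, -2.95 ± 0.10 for Kif11, -2.87 ± 0.22 for Kif18a, -2.52 ± 0.13 for Kif22, -2.40 ± 0.17 for Kif2c and -1.63 ± 0.15 for Kifc1. Under vehicle the genotypes differed in few kinesins, with 2 of 32 tested members called higher in Adar-null cells and 0 called lower, against 2.47% higher and 4.05% lower of all genes (6.51% in either direction). Among the mitotic class only Kif20b passed, at 85.4, 72.5 and 75.5 CPM in Adar-null cells and 60.4, 68.7 and 68.0 CPM in control cells (0.24 ± 0.07, adjusted p = 0.0177). That call was lost with DESeq2 (adjusted p = 0.106), without Adar-null vehicle replicate 1 (adjusted p = 0.250) or without control vehicle replicate 1 (adjusted p = 0.167). The other 10 mitotic kinesins differed by -0.19 to 0.20 and did not pass the test, and in the class as a whole 5 of 11, each higher in Adar-null cells, had vehicle libraries that did not overlap between genotypes, against 22.3% of all genes in either direction.

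Kif18b, placed in the class of other kinesins, works on astral microtubules in mitosis and changed like the mitotic class. It had 11.9, 14.4 and 12.8 CPM in Adar-null cells with IFNb, against 80.4, 75.0 and 62.0 CPM with vehicle. Control cells with IFNb held 49.96, 52.6 and 49.4 CPM, against 63.4, 64.4 and 64.9 CPM in control cells with vehicle. It was 5.53-fold lower with IFNb in Adar-null cells (-2.47 ± 0.11, adjusted p = 4.5e-47) and also fell in control cells (-0.34 ± 0.08). Under vehicle its genotype difference of 0.18 ± 0.07, adjusted p = 0.126 was not called, but it was without Adar-null vehicle replicate 3 (adjusted p = 0.0136). Of the 10 tested other kinesins, 7 fell in Adar-null cells with IFNb, 1 was higher and 2 did not pass (median -0.64), and in control cells 2 fell, 3 were higher and 5 did not pass (median 0.02). The shares of all genes were 35.7% lower and 36.6% higher in Adar-null cells, and 26.5% for each direction in control cells.

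Besides Kif20b, 4 members were called in opposite directions in the 2 genotypes: Kif21a, Kif24, Kif26b and Kif3c. Kif21a, a motor that restrains microtubule growth at plus ends, had 71.3, 67.4 and 60.4 CPM in Adar-null cells with IFNb, against 78.5, 80.2 and 77.5 CPM with vehicle. The control libraries had 117, 125 and 132 CPM with IFNb, against 79.3, 78.9 and 82.2 CPM with vehicle. It fell in Adar-null cells with IFNb (-0.25 ± 0.07, adjusted p = 0.000345) and was higher in control cells with IFNb (0.64 ± 0.06, adjusted p = 5.24e-18), with no overlap of libraries in either. Kif26b, an atypical kinesin studied in kidney development, had 2.65, 2.55 and 2.37 CPM in Adar-null cells with IFNb, against 6.33, 5.93 and 5.70 CPM with vehicle. In control cells it had 11.6, 10.998 and 8.98 CPM with IFNb, against 6.32, 6.75 and 5.41 CPM with vehicle. Its response was -1.24 ± 0.27, adjusted p = 7.05e-06 in Adar-null cells and 0.76 ± 0.19, adjusted p = 0.000283 in control cells, so control cells with IFNb held the highest level of the 4 groups.

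Kif24, a centriolar kinesin that restrains the assembly of primary cilia, had 7.75, 8.41 and 8.69 CPM in Adar-null cells with IFNb, against 20.2, 23.6 and 22.6 CPM with vehicle. Control cells with IFNb held 30.8, 28.4 and 30.5 CPM, against 24.7, 25.9 and 24.7 CPM in control cells with vehicle. Its response was -1.42 ± 0.15, adjusted p = 3.2e-17 in Adar-null cells and 0.25 ± 0.11, adjusted p = 0.0368 in control cells. The rise in control cells was no longer called with upper-quartile scaling (adjusted p = 0.0668), with library sizes unscaled (adjusted p = 0.149), with no filter on low counts (adjusted p = 0.0617), with DESeq2 (adjusted p = 0.103), without control IFNb replicate 1 (adjusted p = 0.0877), without control IFNb replicate 3 (adjusted p = 0.0937), without control vehicle replicate 1 (adjusted p = 0.0835), without control vehicle replicate 2 (adjusted p = 0.0501) or without control vehicle replicate 3 (adjusted p = 0.0822). Kif3c, a partner of Kif3a that is best known from neurons, had 38.6, 37.5 and 38.9 CPM in Adar-null cells with IFNb, against 49.4, 55.8 and 48.6 CPM with vehicle. The control libraries had 65.4, 65.4 and 66.6 CPM with IFNb, against 54.1, 59.8 and 60.1 CPM with vehicle. Its response was -0.43 ± 0.08, adjusted p = 1.02e-06 in Adar-null cells and 0.18 ± 0.07, adjusted p = 0.0242 in control cells, and the call in control cells was lost with upper-quartile scaling (adjusted p = 0.0594), with library sizes unscaled (adjusted p = 0.195), with DESeq2 (adjusted p = 0.0755), without control IFNb replicate 3 (adjusted p = 0.0640) or without control vehicle replicate 1 (adjusted p = 0.152). With library sizes unscaled the control value was 0.11. The difference of the responses was called for all 5 of these genes, at -3.26 ± 0.14 for Kif20b, -2.004 ± 0.33 for Kif26b, -1.66 ± 0.18 for Kif24, -0.90 ± 0.09 for Kif21a and -0.61 ± 0.11 for Kif3c. Over all 32 tested members, 13 were lower in both genotypes with IFNb, 2 were higher in both, 5 moved in opposite directions, 8 were called in Adar-null cells only, 2 in control cells only and 2 in neither. Over all genes tested, the matching shares were 14.5% lower in both, 14.9% higher in both, 12.4% opposite, 30.6% called in Adar-null cells only, 11.3% in control cells only and 16.3% in neither. Kif5c is among the 8.

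**Figure D4:**
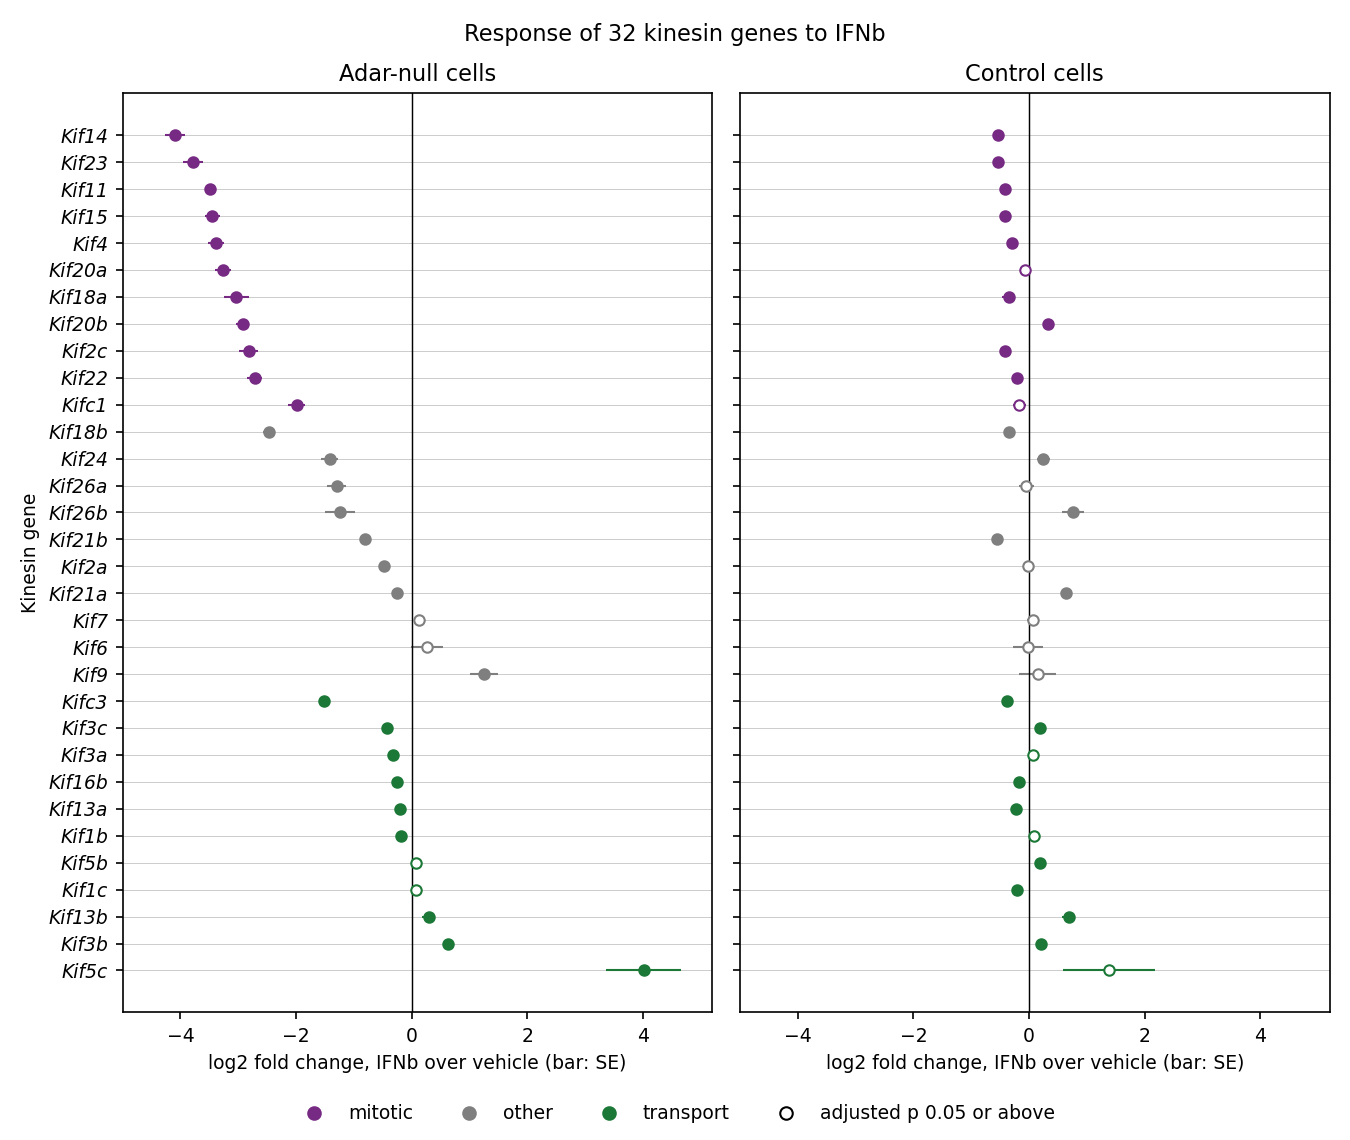
Log2 fold change with IFNb of the 32 tested kinesins, in Adar-null cells and in control cells, with bars of 1 Wald standard error. Colours give the class and open points mark members that were not called. The mitotic members lie between -4.10 and -1.99 in Adar-null cells and between -0.54 and 0.33 in control cells.

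Among the remaining other kinesins, Kif21b, a relative of Kif21a found in neurons and lymphocytes, had the highest level per kilobase of this class. It had 222, 250 and 233 CPM in Adar-null cells with IFNb, against 403, 418 and 409 CPM with vehicle. In control cells it had 299, 326 and 293 CPM with IFNb, against 411, 444 and 498 CPM with vehicle. Kif21b fell in Adar-null cells with IFNb (-0.80 ± 0.06) and in control cells with IFNb (-0.56 ± 0.06), and the responses differed by only -0.24 ± 0.08 (adjusted p = 0.00307). Its genotype difference under vehicle of -0.14 ± 0.06, adjusted p = 0.0873 was called with no filter on low counts (adjusted p = 0.0379) or without control vehicle replicate 1 (adjusted p = 0.00561). Kif26a, an atypical member, had 6.81, 8.56 and 6.16 CPM in Adar-null cells with IFNb, against 16.3, 19.2 and 17.6 CPM with vehicle (-1.30 ± 0.16), and in control cells its response was -0.05 ± 0.13, adjusted p = 0.797. Kif2a, a depolymerase at spindle poles and in growing neurites, had 50.1, 54.3 and 54.5 CPM in Adar-null cells with IFNb, against 70.7, 73.5 and 79.8 CPM with vehicle (-0.49 ± 0.07), and -0.02 ± 0.07 in control cells (adjusted p = 0.830). These 2 genes were therefore called in Adar-null cells and not in control cells, with differences of -1.25 ± 0.21 and -0.47 ± 0.10 between the responses.

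Kif9, a kinesin of motile cilia and sperm flagella, was the other kinesin that was higher with IFNb in Adar-null cells. It had 7.75, 7.21 and 10.3 CPM in Adar-null cells with IFNb, against 3.59, 3.17 and 3.92 CPM with vehicle. Control cells with IFNb held 3.56, 2.71 and 2.48 CPM, against 2.81, 3.46 and 1.44 CPM in control cells with vehicle. The 3 Adar-null libraries with IFNb lay above the other 9 libraries (1.25 ± 0.24, adjusted p = 1.03e-06 against Adar-null vehicle and 1.54 ± 0.26, adjusted p = 1.25e-08 against control cells with IFNb). The difference of the responses was 1.10 ± 0.40, adjusted p = 0.0133, and it was not called without Adar-null IFNb replicate 3 (adjusted p = 0.0546) or without control vehicle replicate 2 (adjusted p = 0.120). Kif7, which acts at the tip of the cilium in Hedgehog signalling, did not pass the test in either response (0.13 ± 0.09 in Adar-null cells and 0.06 ± 0.10 in control cells). Under IFNb it was higher in Adar-null cells than in control cells (0.24 ± 0.09, adjusted p = 0.0155), a call that was lost without Adar-null IFNb replicate 1 (adjusted p = 0.0682) or without control IFNb replicate 3 (adjusted p = 0.135). Kif6 ranged from 2.65 to 5.05 CPM over the 12 libraries and passed no test.

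The transport kinesins did not move as a block. In Adar-null cells 6 of 11 fell with IFNb, 3 were higher and 2 did not pass, with a median of -0.18. Of all genes, 35.7% fell there and 36.6% were higher. In control cells 4 of the 11 fell, 4 were higher and 3 did not pass, with a median of 0.09, where 26.5% of all genes fell and 26.5% were higher. Without Kif5c the counts in Adar-null cells were 6 lower and 2 higher of 10, with a median of -0.19. Conventional kinesin is built from the heavy chains Kif5a, Kif5b and Kif5c, of which Kif5b is found in most tissues and the others mainly in neurons. Kif5b had 336, 365 and 356 CPM in Adar-null cells with IFNb, against 322, 334 and 351 CPM with vehicle. The control libraries had 414, 411 and 390 CPM with IFNb, against 352, 361 and 354 CPM with vehicle. Its response was 0.07 ± 0.06, adjusted p = 0.143 in Adar-null cells, which missed the threshold, and 0.19 ± 0.06, adjusted p = 0.000104 in control cells, or 0.11 with library sizes unscaled. The difference of the responses was -0.12 ± 0.08, adjusted p = 0.0877 and was called without Adar-null IFNb replicate 2 (adjusted p = 0.0330), without Adar-null vehicle replicate 1 (adjusted p = 0.0450) or without control IFNb replicate 3 (adjusted p = 0.0491).

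Kif5c, by contrast, was almost uncounted outside Adar-null cells with IFNb. The 3 libraries held 27, 33 and 40 counts in Adar-null cells with IFNb, against 1, 3 and 2 with vehicle. In control cells they held 6, 6 and 3 counts with IFNb, against 1, 1 and 3 with vehicle. Summed over a group, that is 100 counts in Adar-null cells with IFNb and 6 with vehicle, a ratio of 17.1 after scaling with a 95% exact counting interval of 7.57 to 47.6, which covers counting error only. Against control cells with IFNb (15 counts) the ratio was 6.96 with an interval of 4.03 to 12.9. The response of control cells missed the threshold (1.38 ± 0.80, adjusted p = 0.0968). Because Kif5c entered the test only through the Adar-null IFNb group, that it was called follows in part from the filter, and its call supports no count here. The fitted difference of the responses, 2.63 ± 1.03, was not called without Adar-null vehicle replicate 1 (adjusted p = 0.0583), without control IFNb replicate 3 (adjusted p = 0.0560) or without control vehicle replicate 3 (adjusted p = 0.275). Kif5a stayed below the filter with 10, 10 and 8 counts in Adar-null cells with IFNb, against 3, 2 and 2 with vehicle. It had 1, 3 and 4 counts in control cells with IFNb, against 1, 0 and 2 with vehicle. Its ratio in Adar-null cells was 4.10, with an interval of 1.75 to 11.1.

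The second family, a heterotrimer of Kif3a with Kif3b or Kif3c and the adaptor Kifap3, carries cargo along the axoneme of cilia. Kif3b had 73.8, 79.7 and 86.9 CPM in Adar-null cells with IFNb, against 52.7, 48.9 and 54.7 CPM with vehicle. In control cells it had 64.0, 61.7 and 65.0 CPM with IFNb, against 59.7, 53.4 and 52.7 CPM with vehicle. It was 1.55-fold higher with IFNb in Adar-null cells (0.63 ± 0.07, adjusted p = 2.89e-14), and all 3 Adar-null IFNb libraries lay above the other 9. In control cells its response was 0.20 ± 0.07, adjusted p = 0.0142, which was lost with library sizes unscaled (adjusted p = 0.136), without control IFNb replicate 3 (adjusted p = 0.0534), without control vehicle replicate 2 (adjusted p = 0.0671) or without control vehicle replicate 3 (adjusted p = 0.0705). Kif3a, its partner, had 80.0, 79.0 and 70.2 CPM in Adar-null cells with IFNb, against 94.96, 98.9 and 91.2 CPM with vehicle, a fall (-0.32 ± 0.06, adjusted p = 2.4e-06), while its response was 0.06 ± 0.06, adjusted p = 0.373 in control cells. The members of this heterotrimer therefore went different ways in Adar-null cells: Kif3b was higher, and Kif3a, Kif3c and Kifap3 (-0.42 ± 0.08) were lower.

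Among the motors of vesicles and organelles, changes were small. Kif1b, which carries mitochondria and synaptic vesicle precursors, fell in Adar-null cells with IFNb (-0.18 ± 0.06, adjusted p = 0.00221, and -0.27 with library sizes unscaled), while in control cells its response of 0.09 ± 0.06, adjusted p = 0.146 was called without control IFNb replicate 2 (adjusted p = 0.0441). Kif1c was 0.08 ± 0.06 in Adar-null cells (adjusted p = 0.155), which was called without Adar-null vehicle replicate 2 (adjusted p = 0.0368), and fell in control cells (-0.21 ± 0.06, adjusted p = 0.000502). Kif16b, a motor of early endosomes, fell in Adar-null cells (-0.26 ± 0.08, adjusted p = 0.00156) and in control cells (-0.18 ± 0.08, adjusted p = 0.0377). The control call on Kif16b was lost with DESeq2 (adjusted p = 0.110), without control IFNb replicate 2 (adjusted p = 0.0503), without control IFNb replicate 3 (adjusted p = 0.187), without control vehicle replicate 1 (adjusted p = 0.0832) or without control vehicle replicate 2 (adjusted p = 0.262), with a value of -0.12 without control vehicle replicate 2.

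Kif13a, which moves endosomes to the periphery and, in human pigment cells, serves the delivery of pigment enzymes to melanosomes, had 48.0, 47.6 and 44.9 CPM in Adar-null cells with IFNb, against 59.7, 50.1 and 52.0 CPM with vehicle. Control cells with IFNb held 46.4, 41.0 and 40.1 CPM, against 52.1, 48.4 and 48.3 CPM in control cells with vehicle. Its fall was -0.20 ± 0.08, adjusted p = 0.0178 in Adar-null cells and -0.23 ± 0.08, adjusted p = 0.0127 in control cells. The call in Adar-null cells was lost with DESeq2 (adjusted p = 0.0613), without Adar-null IFNb replicate 3 (adjusted p = 0.0584) or without Adar-null vehicle replicate 1 (adjusted p = 0.199), with -0.12 without Adar-null vehicle replicate 1, and the call in control cells was lost with DESeq2 (adjusted p = 0.0513), without control IFNb replicate 2 (adjusted p = 0.0703), without control IFNb replicate 3 (adjusted p = 0.0744) or without control vehicle replicate 1 (adjusted p = 0.0701). Under IFNb the genotype difference of 0.14 ± 0.08, adjusted p = 0.102 was not called, but was with upper-quartile scaling (adjusted p = 0.0373) or without control IFNb replicate 1 (adjusted p = 0.0362). Kif13b, a close relative, had 27.0, 23.4 and 31.4 CPM in Adar-null cells with IFNb, against 25.2, 19.9 and 22.3 CPM with vehicle. The control libraries had 29.3, 35.7 and 31.6 CPM with IFNb, against 18.6, 19.6 and 22.2 CPM with vehicle. It was higher with IFNb in control cells (0.69 ± 0.11, adjusted p = 6.23e-08), and in Adar-null cells by 0.29 ± 0.11, adjusted p = 0.0151, a call that was lost with library sizes unscaled (adjusted p = 0.106), with DESeq2 (adjusted p = 0.0528), without Adar-null IFNb replicate 3 (adjusted p = 0.259) or without Adar-null vehicle replicate 2 (adjusted p = 0.153), with 0.16 without Adar-null IFNb replicate 3 and 0.20 with library sizes unscaled. The genotype difference of Kif13b under IFNb (-0.25 ± 0.10, adjusted p = 0.0260) was lost with upper-quartile scaling (adjusted p = 0.0621), with DESeq2 (adjusted p = 0.110), without Adar-null IFNb replicate 2 (adjusted p = 0.243) or without control IFNb replicate 2 (adjusted p = 0.165), with -0.15 without Adar-null IFNb replicate 2, and reached -0.38 without Adar-null IFNb replicate 3. The difference of its responses (-0.40 ± 0.16, adjusted p = 0.0252) was lost with DESeq2 (adjusted p = 0.0835), without Adar-null IFNb replicate 2 (adjusted p = 0.112), without Adar-null vehicle replicate 1 (adjusted p = 0.116), without control IFNb replicate 2 (adjusted p = 0.0817), without control vehicle replicate 1 (adjusted p = 0.0724) or without control vehicle replicate 2 (adjusted p = 0.0509).

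Kifc3, a motor that walks to minus ends and acts at adherens junctions, fell most among the transport kinesins. It lies on chr8:95099828-95202812 of GRCm38 and had 44.4, 48.6 and 50.6 CPM in Adar-null cells with IFNb, against 135, 142 and 134 CPM with vehicle. In control cells it had 85.3, 84.7 and 87.0 CPM with IFNb, against 110, 105 and 120 CPM with vehicle. It was 2.85-fold lower with IFNb in Adar-null cells (-1.51 ± 0.07, adjusted p = 5.28e-45), and it also fell in control cells (-0.38 ± 0.06, adjusted p = 2.11e-08). Kifc3 was the second member that differed between the genotypes under vehicle, higher in Adar-null cells (0.30 ± 0.06, adjusted p = 3.34e-05). The direction between the genotypes was the opposite under IFNb (-0.83 ± 0.07, adjusted p = 5.97e-22).

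**Figure D5:**
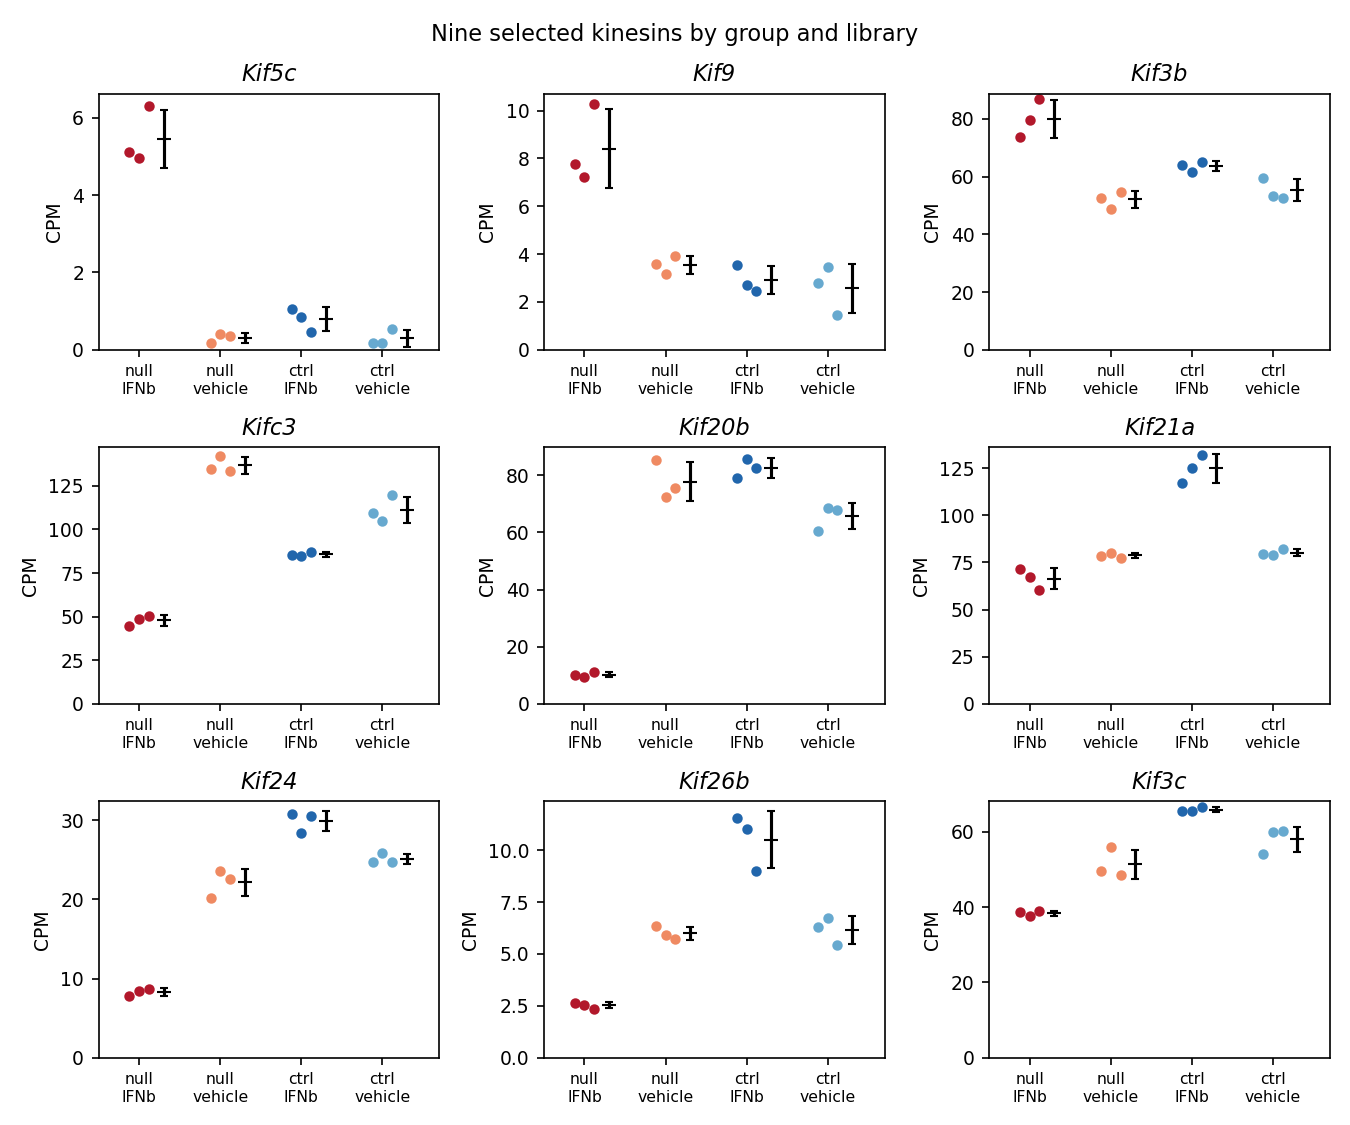
CPM of 9 selected kinesins in each of the 12 libraries, by group (null: Adar-null cells, ctrl: control cells); each point is a library and the black marks are the mean and SD over 3 libraries. Kif5c, Kif9 and Kif3b are highest in Adar-null cells with IFNb, and Kifc3, Kif20b, Kif21a, Kif24, Kif26b and Kif3c are lowest there.

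Between Adar-null and control cells under IFNb, 5 of the 32 tested kinesins were higher and 24 lower, or 4 and 24 of 31 without Kif5c. Of all genes, 36.4% were higher and 36.2% lower. Outside the mitotic class the members higher in Adar-null cells were Kif5c (2.77 ± 0.44), Kif9 (1.54 ± 0.26), Kif3b (0.34 ± 0.07), Kif7 (0.24 ± 0.09) and Kif1c (0.18 ± 0.06). The lower ones were Kif26b (-2.05 ± 0.25), Kif18b (-1.95 ± 0.11), Kif24 (-1.84 ± 0.14), Kif26a (-1.20 ± 0.17), Kif21a (-0.92 ± 0.06), Kifc3 (-0.83 ± 0.07), Kif3c (-0.78 ± 0.08), Kif2a (-0.45 ± 0.07), Kif3a (-0.44 ± 0.06), Kif1b (-0.41 ± 0.06), Kif21b (-0.38 ± 0.06), Kif13b (-0.25 ± 0.10) and Kif5b (-0.20 ± 0.06). Kif13a, Kif16b and Kif6 did not pass.

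Levels were set against each other per kilobase of exon (GENCODE M21), since a longer gene collects more counts. Kif5b was the highest kinesin in all 4 groups, at 44.1 ± 1.82 CPM per kb in Adar-null cells with IFNb, against 42.1 ± 1.83 with vehicle, and at 50.8 ± 1.64 in control cells with IFNb, against 44.6 ± 0.617 with vehicle. In Adar-null cells with IFNb it was followed by Kif3a (21.3 ± 1.51 CPM per kb), Kif21b (19.3 ± 1.19), Kif1c (17.8 ± 0.0283) and Kif3b (14.2 ± 1.17). Kif3a and Kif21b did not differ beyond their spread there. In Adar-null cells with vehicle the order was Kif21b (33.6 ± 0.619 CPM per kb), Kif3a (26.5 ± 1.07), Kifc3 (25.8 ± 0.885) and Kif11 (21.0 ± 0.198), where Kif3a and Kifc3 did not differ beyond their spread. Kif11 was the highest mitotic kinesin per kb in the vehicle groups and took place 18 among the members in Adar-null cells with IFNb, against place 5 in Adar-null cells with vehicle, at 1.86 ± 0.287 CPM per kb. Over the 11 mitotic kinesins the level per kb spanned 0.308 to 2.40 in Adar-null cells with IFNb, against 2.53 to 21.0 with vehicle, and 2.25 to 14.5 in control cells with IFNb, against 2.89 to 19.3 with vehicle.

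The 9 tested members with a CHR within 50 bases of the start all fell with IFNb in Adar-null cells, by 1.24 to 3.79 on the log2 scale. Of these, 7 belong to the mitotic class, and the other 2 are Kif18b (-2.47 ± 0.11) and Kif26b (-1.24 ± 0.27). In control cells with IFNb, Kif11, Kif15, Kif18b, Kif22, Kif23 and Kif4 also fell, where 26.5% of all genes were called in each direction. Kif20b (0.33 ± 0.07) and Kif26b (0.76 ± 0.19) were higher in those control cells, and Kifc1 was not called. Kif14 and Kif2c, with a CHR farther from the RefSeq start used, changed by -4.10 ± 0.17 and -2.82 ± 0.16. The 16 tested members whose window holds no TTTGAA had a median of -0.23, with 10 lower, 3 higher and 3 not called. Kif5c is among the members called higher. It passed the count filter only through the Adar-null IFNb group, so its call supports no count here. Of all genes tested, 35.7% were lower and 36.6% higher. The 16 members without TTTGAA include Kif18a (-3.04 ± 0.21), whose window holds TTTGGCGC. Only the exact letters were searched, and only in the RefSeq windows. The element and the mitotic class coincide in most of these genes, and their parts in the response were not tested.

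The partners of the mitotic kinesins also fell. Of 18 spindle partners, 17 fell with IFNb in Adar-null cells (median -2.96), and in control cells 16 fell, 1 was higher (Cep55) and 1 did not pass (median -0.38). Of all genes, 35.7% fell in Adar-null cells and 26.5% in control cells. Cenpe, itself a kinesin of kinetochores although its symbol keeps it out of the 40 members, changed by -3.08 ± 0.10 in Adar-null cells and -0.68 ± 0.06 in control cells. Racgap1, the second subunit of centralspindlin next to Kif23, changed by -3.22 ± 0.09 and -0.75 ± 0.06 in the same order. Prc1, the midzone bundler that works with Kif4 and Kif14, changed by -2.92 ± 0.09 in Adar-null cells and -0.63 ± 0.06 in control cells. Cit, the citron kinase gene, changed by -4.03 ± 0.21 in Adar-null cells and -0.68 ± 0.10 in control cells. The deepest fall of the list was that of Aurkb, the kinase of the passenger complex that Kif20a carries (-4.71 ± 0.17 in Adar-null cells and -0.17 ± 0.06 in control cells). Numa1, which gathers microtubule minus ends at the poles and is also present between divisions, was the exception and did not pass the test in either response (0.03 ± 0.06 in Adar-null cells and -0.03 ± 0.06 in control cells). Between the genotypes under IFNb all 18 partners were called, Numa1 included. There 17 were lower in Adar-null cells and 1 was higher, against 36.2% and 36.4% of all genes.

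Of 16 regulators of cell cycle genes, 10 fell with IFNb in Adar-null cells, 3 were higher and 3 did not pass (median -0.67), whereas in control cells 4 fell, 7 were higher and 5 did not pass (median 0.17). All genes gave 35.7% lower and 36.6% higher in Adar-null cells, and 26.5% each way in control cells. Foxm1, a factor that acts with MuvB at CHR promoters, had 24.4, 24.3 and 22.1 CPM in Adar-null cells with IFNb, against 234, 229 and 207 CPM with vehicle. It changed by -3.24 ± 0.08, adjusted p = 1.6e-76 in Adar-null cells and -0.01 ± 0.05, adjusted p = 0.879 in control cells. Mybl2, the Myb protein of the same complex, changed by -1.83 ± 0.23 in Adar-null cells and 0.50 ± 0.15 in control cells, and E2f1 by -2.94 ± 0.15 and 0.35 ± 0.08 in the same order. Both were thus called lower in Adar-null cells and higher in control cells. Cdkn1a, the gene of the cyclin-dependent kinase inhibitor p21, was higher with IFNb in both genotypes (3.48 ± 0.06 in Adar-null cells and 2.56 ± 0.06 in control cells). E2f4, a subunit of the DREAM complex (-0.12 ± 0.10 and 0.08 ± 0.11), and Lin52 (0.14 ± 0.15 and -0.15 ± 0.16) passed no test in the 5 comparisons.

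The partners of the transport kinesins were mixed. Of 15 tested light chains and cargo adaptors (17 of the 19 listed were in the table), 6 were higher with IFNb in Adar-null cells, 6 fell and 3 did not pass (median 0.00). In control cells 3 were higher, 6 fell and 6 did not pass (median -0.12). As above, 36.6% of all genes were higher and 35.7% fell in Adar-null cells, with 26.5% each way in control cells. The light chains of conventional kinesin went separate ways in Adar-null cells, with Klc1 at -0.77 ± 0.06 and Klc2 at 0.54 ± 0.08, against -0.23 ± 0.06 and -0.34 ± 0.10 in control cells. Arl8a, a GTPase that links lysosomes to kinesins, was higher in Adar-null cells (0.97 ± 0.07) and in control cells (0.27 ± 0.07) with IFNb. Mapk8ip1, a scaffold that binds the light chains, was called in all 5 comparisons, at -0.16 ± 0.06 in Adar-null cells and 0.24 ± 0.06 in control cells. Of 17 tested subunits of dynein, the motor of opposite direction, and dynactin, 6 were higher in Adar-null cells, 7 fell and 4 did not pass (median -0.03), with 5 higher, 7 lower and 5 not called in control cells (median 0.06). Again 36.6% of all genes were called higher and 35.7% called lower in Adar-null cells, with 26.5% each way in control cells. Dync1h1, the dynein heavy chain, changed by 0.73 ± 0.06 in Adar-null cells and 0.13 ± 0.06 in control cells. Actr1a and Dctn3 of dynactin passed no test in the 5 comparisons.

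The members outside the test were low in every group. Kif17, a ciliary and dendritic motor, had 3 counts in Adar-null cells with IFNb and 2 with vehicle, and in control cells 4 with IFNb and 3 with vehicle. Kif27 had 2 counts in Adar-null cells with IFNb and 1 with vehicle, and in control cells 2 with IFNb and 3 with vehicle. Kif19a, which shortens microtubules in motile cilia, had 5 counts in Adar-null cells with IFNb and 1 with vehicle, and in control cells 15 with IFNb and 7 with vehicle. Kifc2 had 20 counts in Adar-null cells with IFNb and 18 with vehicle, and in control cells 15 with IFNb and 13 with vehicle. Kif12, Kif1a, a neuronal motor, and Kif2b were at 0 in all 12 libraries. A sum of 3 counts over a group was taken as the floor, so differences between groups of Kif17 and Kif27 were not detectable at this depth.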

How the data were processed

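Per the labels' protocols, the 12 libraries of B16 cells were directional, were made from RNA without its ribosomal part and were read as pairs. Per the submitters' processing notes, bcl2fastq 2.19.1, Trimmomatic 0.33, Bowtie2 2.2.4, HTSeq 0.6.1p1, DESeq2 and the mm10 build were used. The sources used here give neither settings nor step order, nor the annotation, nor whether counting used strand. Bowtie2 does not splice reads across introns, and its settings are unknown, so reads over exon junctions may be missing to an unknown degree. The authors deposited raw counts per gene symbol, which were not normalized, and the total count of a library was 5375649 to 7153480.

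From these counts, 11561 genes passed filterByExpr by group. Libraries were scaled by TMM, and edgeR 4.0.16 (R 4.3.3) fitted its robust quasi-likelihood model over all 12 libraries with 1 term per group, which gave 5 comparisons. A call required a p under 0.05 after Benjamini-Hochberg adjustment, and the common biological coefficient of variation was 0.0397. Values after ± are Wald standard errors of log2 fold changes or standard deviations of CPM over 3 libraries. The scripts were tested on simulated counts in which few genes changed, as many up as down. That test did not cover a response as broad as that of Adar-null cells, where 72.3% of genes were called. The alternatives were DESeq2 1.42.0, limma-voom (3.58.1), other scaling, no filter, Rn45s left out, only the groups compared, a replicate block, each library left out and, added after seeing the data, near-identical copies summed. Same-numbered libraries did not deviate together (correlation of deviations -0.10 to 0.06 over 18 pairs), so the numbers were not taken to pair them. Replicates differed beyond sampling noise, with a chi-square per degree of freedom of 1.47 to 3.23. The members, classes and partner lists were chosen with earlier results of these data known, so no class or list has a p-value of its own. All members that passed the filter are named. Chromosomal positions are from GENCODE M21 (GRCm38) and promoter windows from RefSeq (GRCm38.p6).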

Additional observations from a re-analysis of the deposited data

Results flagged for a closer look

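The response to IFNb differed between Adar-null and control cells for 27 of the 32 tested kinesins, where 59.3% of all genes tested differed. The test was the interaction term of the quasi-likelihood fit, with Benjamini-Hochberg adjustment over all genes tested. Without Kif5c, which passed the count filter only through the Adar-null IFNb group, the count was 26 of 31. The values that follow are log2 differences, Adar-null minus control. In the mitotic class they were -3.07 for Kif11, -3.56 for Kif14, -3.03 for Kif15, -2.68 for Kif18a, -3.20 for Kif20a, -3.26 for Kif20b, -2.50 for Kif22, -3.25 for Kif23, -2.41 for Kif2c, -3.10 for Kif4 and -1.83 for Kifc1. Among the transport and other kinesins with a negative difference they were -0.40 for Kif13b, -2.13 for Kif18b, -0.27 for Kif1b, -0.90 for Kif21a, -0.24 for Kif21b, -1.66 for Kif24, -1.25 for Kif26a, -2.004 for Kif26b, -0.47 for Kif2a, -0.38 for Kif3a, -0.61 for Kif3c and -1.14 for Kifc3. The difference was positive at 0.29 for Kif1c, 0.43 for Kif3b, 2.63 for Kif5c and 1.10 for Kif9. The difference missed the threshold for Kif13a, Kif16b, Kif5b, Kif6 and Kif7. Rn45s, the melanocyte markers and Tubb3 also moved with IFNb and genotype. With Rn45s left out, no call on a difference changed. Any other part of Rn45s and these markers in the differences was not tested.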

How the results depend on the processing

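The number of tested kinesins called, of 32, was 28 in the Adar-null response, 22 in the control response, 29 between genotypes under IFNb, 2 under vehicle and 27 for the difference of the responses. Without Kif5c the counts were 27, 22, 28, 2 and 26 of 31. With DESeq2 over all tested members they were 26, 17, 28, 1 and 26, and the member lost under vehicle was Kif20b (adjusted p = 0.106). Leaving out each library in turn gave 26 to 28, 17 to 22, 28 to 30, 1 to 3 and 25 to 27 in the same order. The lowest vehicle count came without Adar-null vehicle replicate 1. With the replicate number as a block the counts were 28, 22, 29, 2 and 27, so the block moved no count, although the numbers were not taken to pair the libraries. With library sizes unscaled, the median of the transport class was -0.27 in Adar-null cells and 0.01 in control cells, and scaling moved the median of all genes by at most 0.09 on the log2 scale. Over all alternatives, single-gene values kept their direction wherever they were called. Of the values for a gene under an alternative, 58 lost the call, 11 gained it and 3417 kept their status. Those that kept it include values called in neither fit, so these numbers give no rate of loss among calls. The cause was not tested for any of these changes. Depth limits Kif5a, Kif5c, Kif6, Kif9, Kif17, Kif19a, Kif27 and Kifc2, which held few counts.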
